A study of Mus musculus with 4 samples.

Results

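Inhibitory checkpoint receptors are surface proteins that damp the activation of lymphocytes. The 10 genes described here are Pdcd1, Ctla4, Lag3, Havcr2, Tigit, Btla, Cd96, Cd160, Cd200r1 and Vsir, taken by gene name from a table of 38697 genes, and all 10 had an adjusted p-value. RNA came from group 2 innate lymphoid cells (ILC2s), tissue lymphocytes without antigen receptors on their surface that make type 2 cytokines, sorted from the lungs of bleomycin-treated C57BL/6 mice. Bleomycin injures the lung and is used to induce fibrosis. The WT group was R5/+ and the KO group R5/+Nrp1f/f, so both groups carried 1 R5 allele, which couples a reporter and Cre recombinase to Il5 expression. Deletion is thus expected in cells that have expressed Il5. Each group had 2 samples, each a pool of 3 to 4 mice, and no age of the mice is given in the sources used here. The values come from the authors' own genotype comparison, which asks which transcripts differ when neuropilin-1 is deleted. They comprise baseMean, which is the normalized count of a gene averaged over libraries, and the log2 fold change, given here as KO over WT, with a standard error (SE). Values per library were not used here, so no value per pool can be given.

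These receptors work in several ways. PD-1 (Pdcd1), BTLA and TIGIT carry tyrosine motifs in their cytoplasmic tails that recruit phosphatases when a ligand on another cell is bound. CTLA-4 and TIGIT also compete with activating receptors, CD28 and CD226, for shared ligands. In ILC2s, PD-1 is known as a brake on proliferation and cytokine output, and CD200R1 as an inhibitory receptor for CD200.

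Nrp1, the deleted gene, had a baseMean of 3771 and, per the authors' deposited table, fell by 1.18 ± 0.21 (SE) on the log2 scale (adjusted p = 1.27e-04). The ILC2 markers Id2, Rora and Gata3 had baseMean values of 43668, 41644 and 39152. None of the 13 ILC2 markers passed the authors' test at an adjusted p under 0.05. At an unadjusted p under 0.05, 6 were lower in KO and none was higher, against 3.95% and 9.62% of all tested genes. Il1rl1, Gata3, Il7r, Ptprc and Areg had a baseMean of 1000 or more, where 21.6% of genes were lower at this threshold. Thy1 lay between 100 and 1000, where 3.2% were. Fold changes in this table moved with abundance. The median log2 value was -0.25 over the 2480 genes at a baseMean of 1000 or more, -0.15 over the 6745 between 100 and 1000, 0.50 over the 4368 between 20 and 100, and 1.79 over the 5600 tested genes under 20. The share of negative values was 92.9%, 69.8%, 26.2% and 11.9% in these 4 classes. Of the 10 ILC2 markers in the highest class 10 were negative, near the share of that class, and after centring on abundant genes 7 of all 13 were. Each receptor is therefore set beside genes of its own abundance class.

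Checkpoint receptor transcripts differed widely in level. Per kilobase of exon, Pdcd1 had 5941 normalized counts, Cd200r1 had 1420 and Cd96 had 813. These 3 genes made up 95.1% of the summed level of the 10 receptors, and Pdcd1 alone 69.1%. Vsir, which encodes VISTA, followed at 124 per kilobase, Tigit at 117, Havcr2, which encodes TIM-3, at 87.0 and Ctla4 at 60.0. Btla stood at 25.7, the same as the median of tested genes (25.7), and Lag3 and Cd160 at 4.36 and 3.46. Pdcd1 ranked 93rd of 19133 tested genes with a known exon length, above 99.5% of them. Icos, an activating receptor of ILC2s at 4841 per kilobase, was not separated from it, the log2 difference of 0.30 being under the combined fitted spread of 0.48. Klrg1, an inhibitory lectin receptor at 2229, lay below it by 1.41 (spread 0.51). Cd160 lay above only 12.7% of tested genes, and Lag3 above 17.9%.

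**Figure D1:**
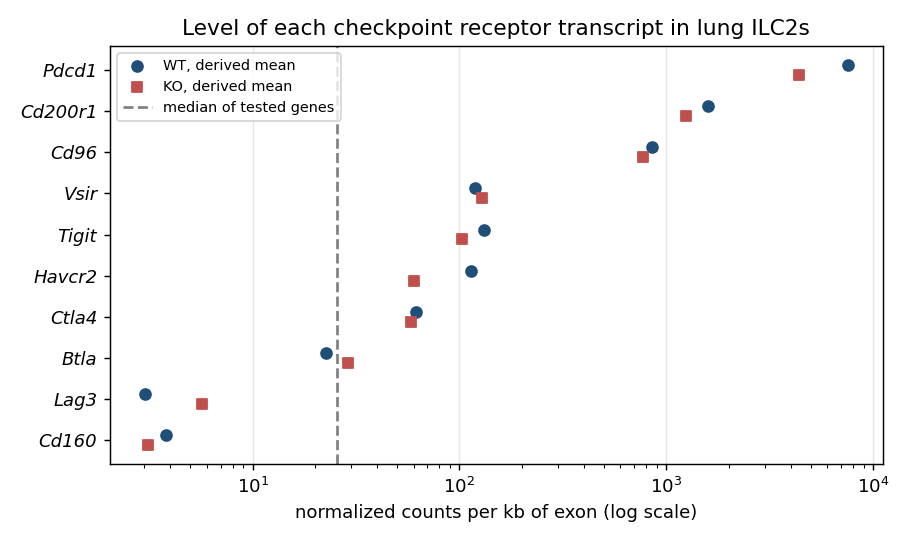
Normalized counts per kilobase of exon for each receptor on a log axis, as WT (circles) and KO (squares) means derived from baseMean and the fold change; the dashed line is the median of tested genes. Pdcd1 lies at 7521 in WT and 4361 in KO, and Lag3 and Cd160 lie below 6 in both.

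The spread used for this order is the deposited SE, which with 2 pools per genotype equals the fitted log2 spread of a single pool. Pdcd1 exceeded Cd200r1 by 2.06 on the log2 scale of levels, against a combined spread of 0.49. Cd200r1 exceeded Cd96 by 0.80 (spread 0.24), and Cd96 exceeded Vsir by 2.72 (0.32). Vsir, Tigit, Havcr2 and Ctla4 could not be ordered as neighbours, their successive differences of 0.08, 0.43 and 0.54 being smaller than the spreads of 0.58, 0.63 and 0.57. Ctla4 lay above Btla, and Btla above Lag3, by 1.22 (0.72) and 2.56 (2.02). Lag3 and Cd160 were not separated, at 0.33 against 2.53. This spread comes from the authors' fit and leaves out error in the annotated exon length.

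No receptor passed the test for a genotype difference. At an adjusted p under 0.05, 0 of 10 were called by the authors' test, where 0.552% of all 19193 tested genes were called, 0.099% as lower and 0.453% as higher in KO. At an unadjusted p under 0.05, Havcr2 and Cd200r1 were lower in KO and none was higher (9.62% of all tested genes were). The lower receptors are 2 of 10, against 3.95% of all tested genes that were lower at this threshold, but 21.6% in the class of Cd200r1, at a baseMean of 1000 or more, and 3.2% of those between 100 and 1000, the class of Havcr2. Log2 values were negative for 7 receptors and positive for 3, with a median of -0.21, where the median of all tested genes was 0.08 and 46.0% were negative. By class, 3 of 3 receptors were negative at a baseMean of 1000 or more (92.9% of genes there), 3 of 4 between 100 and 1000 (69.8%), 0 of 1 between 20 and 100 (26.2%) and 1 of 2 under 20 (11.9%), so the signs of the receptors lie near the shares of their classes.

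**Figure D2:**
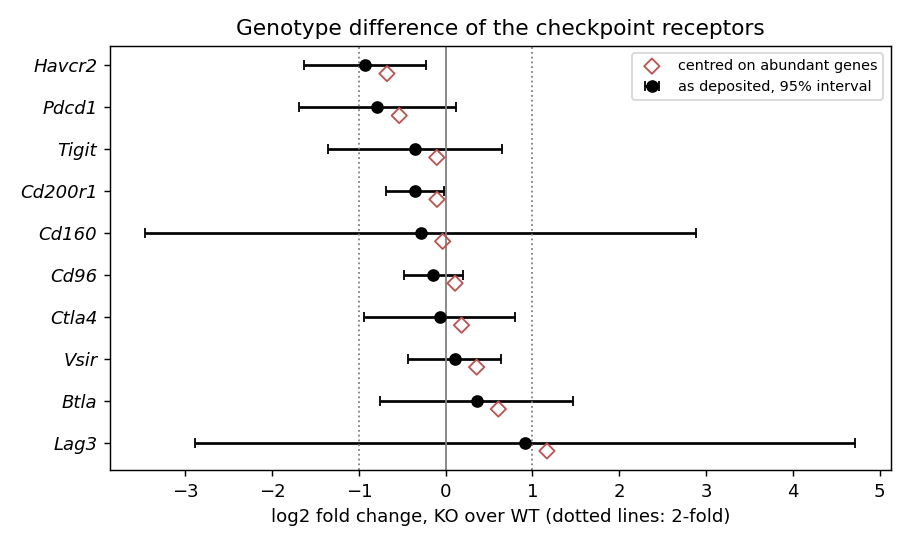
Log2 fold change of each receptor, KO over WT, with its 95% interval (black), and the value after centring on abundant genes (open diamonds); dotted lines mark a 2-fold difference. The intervals of Havcr2 and Cd200r1 leave out 0 before centring, and those of Lag3 and Cd160 span more than a 2-fold difference both ways.

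Pdcd1 (ENSMUSG00000026285, chromosome 1, 94038305 to 94052553, mm10) was the most abundant of the receptors, with a baseMean of 11466. Its derived mean was 14516 normalized counts in WT and 8416 in KO. The log2 value was -0.79 ± 0.46 (SE; 95% interval -1.69 to 0.12), and the adjusted p 0.454, per the authors' deposited table. Only 4 of the 2480 genes at a baseMean of 1000 or more had a more negative value. The SE was 2.45 times the median of that class (0.19), and 36 genes of the class, Pdcd1 included, had an SE at least as wide. Of 14 genes of the class called as lower, 11 had a smaller log2 difference than Pdcd1. At its SE, Pdcd1 would have needed a difference of 1.68 on the log2 scale to be called. A KO level from 0.309 to 1.09 times that of WT lies within its interval, so neither a large reduction nor no difference is left out. The pool or pools behind the wide SE are not known here.

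**Figure D3:**
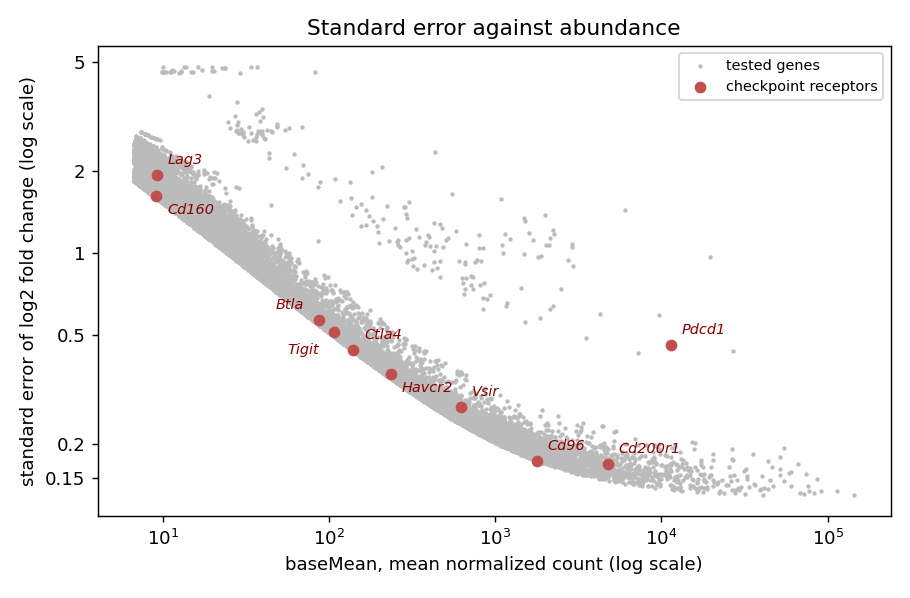
Standard error of the log2 fold change against baseMean, both on log axes, for tested genes (grey) and the receptors (red). Pdcd1, at 0.46, lies above the narrow band that falls with abundance, and the other receptors lie in it.

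Havcr2 (ENSMUSG00000020399, chromosome 11, 46454935 to 46481255), whose product TIM-3 binds galectin-9 and other ligands, had the most negative value of the receptors. It stood at a baseMean of 237, with derived means of 310.5 in WT and 163 in KO. Its log2 value was -0.93 ± 0.36 (95% interval -1.63 to -0.22), with p = 0.00997 unadjusted and 0.188 adjusted, per the authors' deposited table. In its class of 6745 genes, 16 had a more negative value and 4 were called as lower. Unlike that of Pdcd1, its SE was near the class median, at 1.10 times it. A difference of 1.31 would have been called.

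Cd200r1 (ENSMUSG00000022667, chromosome 16, 44765736 to 44794978) was measured more precisely. At a baseMean of 4755 its derived means were 5331 in WT and 4179 in KO. The log2 value of -0.35 ± 0.17 (95% interval -0.68 to -0.02) had p = 0.0381 unadjusted and 0.329 adjusted, per the authors' deposited table. This value lies near the class median of -0.25, and 23.7% of the class were more negative. The interval leaves out a 2-fold difference in either direction.

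Cd96, Vsir and Ctla4 also had intervals inside a 2-fold difference. Cd96 (ENSMUSG00000022657, chromosome 16, 46035657 to 46120251), a receptor for the nectin-like protein CD155, stood, per the authors' deposited table, at -0.14 ± 0.17 (95% interval -0.48 to 0.20; adjusted p = 0.769). Its derived means were 1864 in WT and 1687 in KO. Vsir (ENSMUSG00000020101, chromosome 10, 60346851 to 60372684) stood, per the authors' deposited table, at 0.11 ± 0.27 (95% interval -0.43 to 0.64; adjusted p = 0.905), with 597 in WT and 643 in KO. The Vsir gene lies within Cdh23 on the opposite strand, without overlap of annotated exons. Cdh23 had a baseMean of 249.5, and the kits are not described as marking strand, so intronic reads of the pair cannot be told apart. Ctla4 (ENSMUSG00000026011, chromosome 1, 60887000 to 60915832) stood, per the authors' deposited table, at -0.07 ± 0.44 (95% interval -0.94 to 0.80; adjusted p = 0.968), at derived means of 143 and 137 in WT and KO. Together with Cd200r1 these make 4 of 10 receptors with an interval inside 2-fold, where 35.6% of all tested genes had one.

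The intervals of Tigit and Btla reached past a 2-fold difference. Tigit (ENSMUSG00000071552, chromosome 16, 43648867 to 43664146), a competitor of CD226, stood, per the authors' deposited table, at -0.35 ± 0.51 (95% interval -1.36 to 0.65; adjusted p = 0.815). Its derived means were 121 in WT and 94.5 in KO. Btla (ENSMUSG00000052013, chromosome 16, 45224315 to 45257670), a receptor for the TNF receptor family member HVEM, stood, per the authors' deposited table, at 0.36 ± 0.57 (95% interval -0.76 to 1.47; adjusted p = 0.837), with 76.7 in WT and 98.1 in KO. Genes between 20 and 100 in baseMean, the class of Btla, had a median of 0.50.

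Lag3 and Cd160 were close to the lowest baseMean that was tested, 6.71. Lag3 (ENSMUSG00000030124, chromosome 6, 124904361 to 124911705), a relative of CD4 that binds MHC class II, had, per the authors' deposited table, a baseMean of 9.20 and a log2 value of 0.92 ± 1.94 (adjusted p = 0.881). Cd160 (ENSMUSG00000038304, chromosome 3, 96798763 to 96829351), another HVEM receptor, had, per the authors' deposited table, a baseMean of 9.15 and a value of -0.29 ± 1.62 (adjusted p = 0.963). Their 95% intervals ran from -2.89 to 4.72 and from -3.46 to 2.89, so at these read numbers the table cannot separate a large difference from none. Exons of Cd160 overlap those of Pdzk1 on the other strand, which had a baseMean of 0.371.

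**Figure D4:**
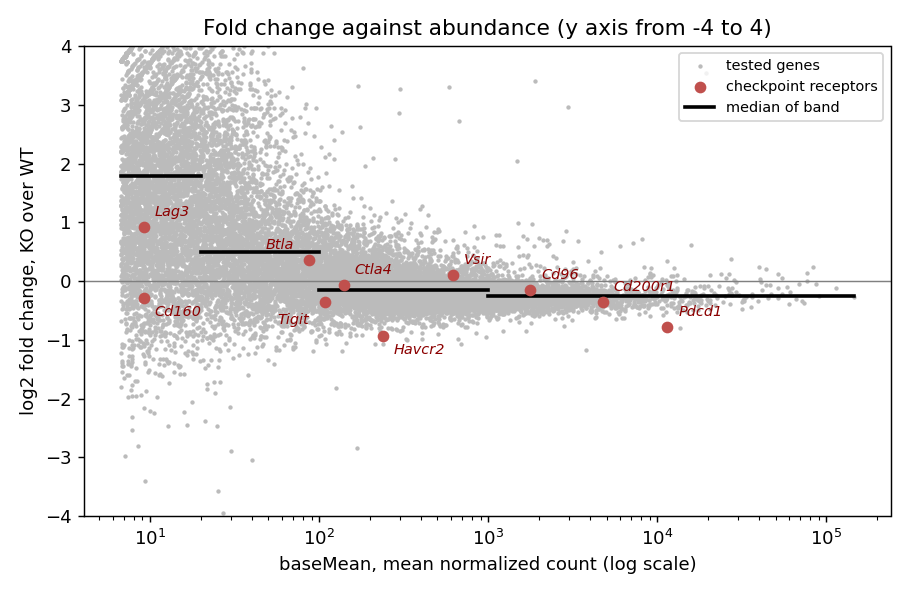
Log2 fold change, KO over WT, against baseMean on a log axis for tested genes (grey) and the receptors (red), with the median of each abundance class as a black line; 942 genes beyond 4 in either direction are not drawn. Pdcd1 and Havcr2 lie at the lower edge of their classes, and Cd96 and Cd200r1 lie near the class median of -0.25.

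Centring fold changes on genes with a baseMean of at least 1000 adds 0.25 to each log2 value. After it, 0 of 10 receptors were called (1.18% of all tested genes were) and none had an unadjusted p under 0.05. Of all tested genes 13.5% had one in either direction, but only 0.203% as lower in KO. Havcr2 stood at -0.68 (unadjusted p = 0.0603), Pdcd1 at -0.53 (0.247) and Cd200r1 at -0.10 (0.556). The shift is that of genes at 1000 or more, the class of Pdcd1, Cd200r1 and Cd96 alone. The class of Havcr2 had a median of -0.15, that of Btla 0.50 and that of Lag3 and Cd160 1.79. The centred p of Havcr2 therefore rests on the shift of another class, and centring by class was not run. Cd96 and Ctla4 turned positive, at 0.11 and 0.18. This left 5 receptors negative and 5 positive, with a median of 0.04, while 14620 of the 19193 tested genes were positive.

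Tigit, Cd200r1, Btla and Cd96 lie within 2.47 Mb of chromosome 16, in that order, and Cd200, the gene for the ligand of CD200R1, lies between Btla and Cd96. The relatives Cd200r4, Cd200r2 and Cd200r3 follow Cd200r1 directly, the first after 16.8 kb. The sources used here do not give the counting method, so reads shared by near-identical parts of this family may be split among its members. Cd200r4 had, per the authors' deposited table, a baseMean of 408 and a log2 value of -0.19 ± 0.28 (adjusted p = 0.819). After centring, Cd200r4 stood at 0.06.

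In the other genes of the pathway, 0 of 72 tested were called in either direction. At an unadjusted p under 0.05, 2 were higher and 5 lower, against 9.62% higher and 3.95% lower of all tested genes. Of the lower ones, Selplg, Inpp5d, Adora2a and Nr4a3 had a baseMean of 1000 or more, where 21.6% of genes were lower at this threshold. Ptpn11 lay between 100 and 1000, where 3.2% were. The higher ones, Ceacam1 and Sh2d1a, lay between 20 and 100 and under 20, where 611 of 4368 and 1142 of 5600 genes were higher. Of 18 ligands and binding partners 16 were tested, with 10 positive and 6 negative values (14 and 2 after centring) and a median of 0.46, beside 0.08 for all tested genes. Negative were 4 of 4 at a baseMean of 1000 or more (92.9% of genes there) and 1 of 4 between 100 and 1000 (69.8%). Lower down, 1 of 6 between 20 and 100 (26.2%) and 0 of 2 under 20 (11.9%) were negative. The list's median thus pools genes of classes with unlike medians, and between 100 and 1000 a smaller share was negative than in the class. How far abundance accounts for that median was not tested. The most abundant, Selplg, the P-selectin ligand that also binds VISTA, had a baseMean of 8997 and stood, per the authors' deposited table, at -0.39 ± 0.18 (adjusted p = 0.277). Ceacam1, described as a TIM-3 partner, stood, per the authors' deposited table, at 1.19 ± 0.60 (adjusted p = 0.366) at a baseMean of 70.8. Fgl1, a LAG-3 ligand, stood, per the authors' deposited table, at 2.06 ± 1.65 (adjusted p = 0.613) at a baseMean of 10.5. At so few reads a log2 value is a product of the fit and not a measured fold. The PD-1 ligands Cd274 and Pdcd1lg2, named here outside the naming rule, stood, per the authors' deposited table, at -0.21 ± 0.21 and -0.25 ± 0.26, with adjusted p of 0.699 and 0.725, and after centring at 0.04 and 0.01. Their levels were 446 and 300 normalized counts per kilobase, against 5941 for their receptor.

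Of 16 signalling genes, 14 had negative values before centring and 10 after it, with medians of -0.29 and -0.04. These were 5 of 5 at a baseMean of 1000 or more, where 92.9% of genes were negative, and 9 of 9 between 100 and 1000, where 69.8% were. Inpp5d, the inositol phosphatase SHIP-1, was the most abundant at a baseMean of 5698.5 and stood, per the authors' deposited table, at -0.42 ± 0.16 (adjusted p = 0.180). Ptpn11, the phosphatase SHP-2 that PD-1 recruits, stood, per the authors' deposited table, at -0.53 ± 0.27 (adjusted p = 0.363). The adaptor Sh2d1a stood, per the authors' deposited table, at 4.38 ± 1.61 (adjusted p = 0.162), at a baseMean of 17.6 and a derived WT mean of 1.62 counts.

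Among 6 genes listed here as activating partners, a label that need not hold for each, 3 were positive and 3 negative (5 and 1 after centring). Icos, at a baseMean of 16604, stood, per the authors' deposited table, at -0.10 ± 0.14 (adjusted p = 0.812) and at 0.16 after centring. Cd226, the activating competitor of TIGIT and CD96, stood, per the authors' deposited table, at -0.50 ± 0.33 (adjusted p = 0.522). Cd244 and Crtam stood, per the authors' deposited table, at 1.34 ± 1.14 and 3.05 ± 1.69 (adjusted p = 0.645 and 0.421) at baseMean values of 24.5 and 10.4.

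Of 15 other inhibitory receptors and ectoenzymes 13 were tested, with 5 positive and 8 negative values (8 and 5 after centring) and a median of -0.07. Adora2a, an adenosine receptor, came nearest to the threshold, per the authors' deposited table, at -0.63 ± 0.19 (adjusted p = 0.0742) and a baseMean of 2732. Klrg1 stood, per the authors' deposited table, at -0.36 ± 0.22 (adjusted p = 0.458) and Cd101 at -0.44 ± 0.24 (0.401). Lilrb4a, the most abundant of the list at a baseMean of 9666, stood, per the authors' deposited table, at -0.29 ± 0.59 (adjusted p = 0.875), and like Pdcd1 had a wide SE for its abundance. Reads of Lilrb4a may be shared with related genes of its family, which was not tested.

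Of the 7 family relatives 5 had a baseMean under 20, while Cd200r4 stood at 408. Before centring all but Cd200r4, 6 in number, were positive (7 after centring), with a median of 1.07. All 5 under 20 were positive, beside 88.1% of tested genes in that class, where the median was 1.79. Timd4 and Havcr1, relatives of Havcr2, stood, per the authors' deposited table, at 2.60 ± 1.85 and 2.53 ± 1.85 (adjusted p = 0.564 and 0.576), and Cd4, at a baseMean of 13.8, at 1.25 ± 1.40 (0.747). Of 16 transcription factors described as regulators of checkpoint genes in T cells 14 were tested, with 3 positive and 11 negative values (5 and 9 after centring) and a median of -0.26 (-0.01 after centring). Negative were 6 of 7 at a baseMean of 1000 or more and 5 of 6 between 100 and 1000, beside 92.9% and 69.8% of all genes there. Nr4a1, an immediate-early nuclear receptor with a baseMean of 90694, stood, per the authors' deposited table, at -0.26 ± 0.13 (adjusted p = 0.380). Nr4a3 stood, per the authors' deposited table, at -0.50 ± 0.17 (adjusted p = 0.141) and Irf4 at -0.55 ± 0.34 (0.481).

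**Figure D5:**
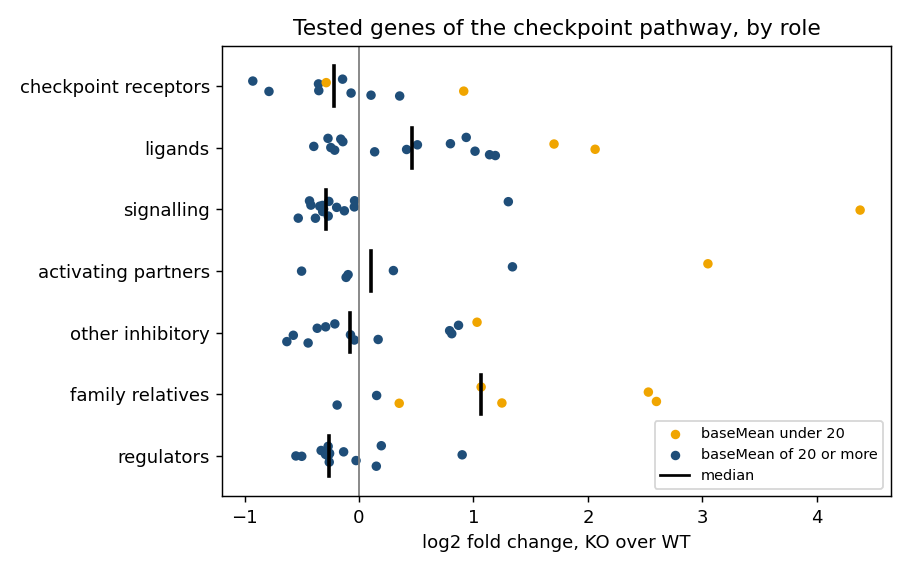
Log2 fold change, KO over WT, of each tested gene of the receptor set and of 6 lists of related genes, with the median of each list as a vertical line and genes with a baseMean under 20 in orange. Medians run from -0.29 in signalling genes to 1.07 in family relatives, whose members are mostly in orange.

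T cells, NK cells and myeloid cells also express receptors of this set. Of 11 T cell markers tested, Cd3g was called, per the authors' deposited table, at -0.96 ± 0.24 (adjusted p = 0.0292), and its call ended after centring (-0.71, adjusted p = 0.103) and without a filter (adjusted p = 0.0588). Of the T cell markers tested 8 were negative and 3 positive (6 and 5 after centring). The positive ones, Cd8b1, Cd4 and Foxp3, had a baseMean under 20, where 88.1% of tested genes were positive. The 12 T cell markers summed to derived means of 8711 in WT and 6458 in KO, mostly from Trbc1, at a baseMean of 2938, and Trbc2, at 2525. The other T cell markers had baseMean values of 963 for Cd3g, 664 for Cd28, 265 for Lef1, 114 for Trac, 51.8 for Cd3e, 18.1 for Cd3d, 17.7 for Cd8b1, 13.8 for Cd4, 9.84 for Foxp3 and 3.84 for Cd8a. NK cell and ILC1 markers summed to 160.4 in WT and 181 in KO, with Nkg7 the highest at 87.0. Macrophage and monocyte markers summed to 9629 and 10846 in WT and KO, all 10 with positive values and most of it Lyz2 (8981). Dendritic cell markers summed to 3097 and 2452, led by Ccr7 (1410), though 5 of 8 had positive values. The 3 negative ones, Ccr7, Zbtb46 and Xcr1, had the highest baseMean values of that list. Markers of mast cells, basophils and eosinophils summed to 13801 and 12134, led by Kit (12411), which ILC2s can also express. Of 5 of these that were tested, 3 were positive and 2, Kit included, negative. B and plasma cell markers summed to 5268 and 5590, with 6 positive and 2 negative values. The most abundant of them, Ighm (2421), was among the negative, per the authors' deposited table, at -0.51 ± 0.18 (adjusted p = 0.141). Neutrophil markers summed to 110 and 94.0, led by S100a9 (34.4). Epithelial markers summed to 7747 in WT and 13447 in KO, led by Sftpc (6032), fibroblast markers to 3868 and 6721, led by Col3a1 (2238), and endothelial markers to 2748 and 3300, led by Pecam1 (1275). No epithelial, fibroblast or endothelial marker was called, and 3 epithelial ones were higher at an unadjusted p under 0.05. Sftpc and Col3a1 stood, per the authors' deposited table, at 0.60 ± 1.44 and 0.70 ± 1.22 (adjusted p = 0.897 and 0.849). The sums carry no error and were not tested. No marker was at 0. Cd4, Cd28, Tbx21 and Eomes stand both in a marker list and in a pathway list. In bulk samples fewer cells of a type and less RNA per cell cannot be told apart, and the part of these other cells in the receptor values was not tested.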

How the data were processed

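RNA-seq of 4 samples (2 WT and 2 KO pools) was analysed through the authors' comparison of the genotypes. Full-length cDNA (SMART-Seq HT kit) and TruePrep libraries were prepared, per the labels' protocols. The submitters' processing notes name HISAT2, Cufflinks and mm10 and give no roles. Which counter, annotation release and filters were used is not given in the sources used here. The authors deposited, per the file headers, baseMean (a signal, the normalized count averaged over libraries), the log2 fold change and its SE in log2 units, a statistic (a score), and p-values before and after adjustment. The column names match the output of DESeq2, per the file headers. The deposited statistic equals the fold change over its SE within 5.35e-08. The deposited adjusted p is that of Benjamini and Hochberg within 3.96e-05, taken over 19193 genes whose baseMean is 6.71 or more.

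Another 8 columns, headed by library codes found in no sample label, were not used, so depth per library, replicate agreement and a refit were not analysed here. P-values set the genotype difference against the SE of the authors' fit, and the spread between pools was not examined here. No numerator is stated. Because WT comes first in the table's name, signs were reversed here. Nrp1, which is positive as deposited and deleted in KO, was also considered in this choice, so its sign is no independent check of it. With the opposite reading every direction, that of Nrp1 included, would turn.

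Intervals are 95%, from the deposited SE and a normal distribution. A difference needed for a call is the SE times 3.64, from the largest unadjusted p called, 2.73e-04. Derived genotype means assume that baseMean weights the genotypes equally. GENCODE M21 (mm10) gave exon lengths and positions for 38427 of 38697 identifiers. Centring subtracted the median log2 value of tested genes with a baseMean of at least 1000 and recomputed p from the SE. It was tested on simulated data in which every gene had the same shift. In the deposited values the shift moved with abundance, so that test cannot show that 1 shift suits all classes. Python 3.11.15, pandas 2.3.3 and scipy 1.17.1 were used.

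The receptors, the gene lists and the tests were chosen with earlier results of these data known. Named genes were the 10 receptors, Nrp1, the 3 genes of each pathway list with the smallest p, the most abundant gene of each list and any list member called. Other ILC2 and T cell markers and the PD-1 ligands were added after values were seen. The planned fit on values per library could not be run, and the authors' two-sided test stands in for it.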

Additional observations from a re-analysis of the deposited data

How the results depend on the processing

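The count of checkpoint receptors called was 0 as deposited and under the 5 alternatives: adjustment without a filter, with a baseMean of at least 50 (which leaves out Lag3 and Cd160), with protein-coding genes alone, a threshold of 0.1 and centring on abundant genes. The adjusted p of Havcr2 ranged from 0.188 to 0.400, that of Cd200r1 from 0.329 to 0.922 and that of Pdcd1 from 0.454 to 0.742. In 48 comparisons of receptors with alternatives 46 kept direction and call. Only centring changes a log2 value, so direction could not turn under the other alternatives, which bear on the call alone. The 2 that turned, both under centring, were Ctla4 (0.18) and Cd96 (0.11). Centring also turned Icos (0.16), Cd200r4 (0.061), Id2 (0.18) and Kit (0.048), by construction. The call of Cd3g ended without a filter (adjusted p = 0.0588) and when centred (0.103). Of the other pathway genes 1, Adora2a, passed at a threshold of 0.1, against 0 as deposited. Over all genes 106 were called as deposited, 23 without a filter, 35 with a baseMean of at least 50, 56 with protein-coding genes alone, 306 at a threshold of 0.1 and 227 when centred (225 higher and 2 lower). Leaving out each replicate, DESeq2 against edgeR and count filters were not run, because no library column could be matched to a sample. No paired analysis was possible because the columns of values per library carry no replicate number of the labels. Lag3 and Cd160 had few reads and standard errors of 1.94 and 1.62 on the log2 scale, and depth per library was not analysed.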
